A study of Arabidopsis thaliana with 8 samples.

Results

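The levels of 6 hormone-linked genes of Arabidopsis thaliana were followed across wild-type and dez mutant seedlings on 2 zinc media. These genes are IAA29 (AT4G32280), HAT2 (AT5G47370), GH3.3 (AT2G23170) and GH3.5 (AT4G27260, listed by the array platform as WES1), which belong to auxin responses, EXO (AT4G08950), which is linked to brassinosteroids, and GID1B (AT3G63010), a gibberellin receptor. They were chosen by name, with earlier results of these data known. Each was read from the brightest probe set that the platform annotation assigns to that gene alone. Each of the 6 genes had exactly 1 such probe set, among 13286 genes with one.

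RNA from whole seedlings, about 45 per sample, was hybridised to the Affymetrix ATH1 array. All seedlings were 7 days old and had been grown in darkness after a short light exposure of the seeds, and they were collected in dim green light. The 4 groups were wild type on control medium with 1 µM zinc, wild type on high-zinc medium with 100 µM zinc, dez on the control medium and dez on the high-zinc medium, with 2 biological replicates each, so 8 arrays in all. The dez mutant is known to carry a lesion in TRICHOME BIREFRINGENCE (TBR), a gene that acts on cell wall polysaccharides. The labels give no accession for the wild type and no detail of the allele.

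Auxin acts by removing Aux/IAA repressor proteins such as IAA29, which frees transcription factors to switch on early response genes. Several of these response genes limit the signal in turn: the Aux/IAA genes encode repressors, and the GH3 genes encode enzymes that join auxin to amino acids. Brassinosteroids and gibberellins act beside auxin in the elongation of the hypocotyl of dark-grown seedlings, and gibberellin works through GID1 receptors that target DELLA growth repressors for removal.

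Levels are given as the deposited intensities, a linear brightness per probe set. The array medians lay between 34.9 and 37.4, and the lowest correlation between replicate arrays of a group was 0.983. The mean TBR intensity was 161 ± 10.5 in wild-type control, 137 ± 11.9 in wild-type high-zinc, 122 ± 13.4 in dez control and 144 ± 8.49 in dez high-zinc samples (SD, n = 2), and a transcript level of this kind does not check the genotype labels. Some control probe sets moved with the groups. The mean log2 signal of the poly-A RNA spikes was 7.67 ± 0.34, 7.58 ± 0.40, 7.18 ± 0.14 and 6.77 ± 0.23 (SD, n = 2) in the same order of groups. The 3′ minus 5′ signal of actin and GAPDH (mean log2) was 1.78 ± 0.30, 1.59 ± 0.11, 1.46 ± 0.15 and 1.20 ± 0.01. The log2 signal of the 25S ribosomal RNA control was 5.98 ± 0.69, 6.56 ± 0.07, 8.18 ± 0.48 and 9.63 ± 1.19. The part of these shifts in the results below was not tested, but 2 alternatives bear on them: dividing each array by its spike signal (spike scaling) and adding the 3′ minus 5′ difference as a covariate.

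Of the 6 genes, 4 passed the test with zinc in dez and none with zinc in wild type. Differences were tested with limma on log2(intensity + 16) over 13648 probe sets, and a gene is said to have changed where its adjusted p (Benjamini-Hochberg over all those probe sets) was under 0.05. With high zinc in wild type 0 of the 6 genes passed, against 0.703% of all tested probe sets. With high zinc in dez 2 of the 6 rose, against a background of 16.6%, and 2 fell, against 17.4%. HAT2, 1 of those that fell, had a log2 difference of -0.30 in dez and -0.43 in wild type. The adjusted p also depends on how many probe sets change in a comparison. A call in dez alone therefore does not show that the zinc effects differ. In dez on control medium 0 of the 6 were higher than in wild type, against 4.20%, and 3 were lower, against 5.39%. In dez on high zinc 1 was higher, against 22.2%, and 3 were lower, against 20.7%. The interaction, which is the zinc effect in dez minus that in wild type, was positive for 2 genes, against 8.87%, and negative for 1, against 10.6%. With 6 genes, chosen with earlier results of these data known, these counts describe the genes and set them apart from no other group of genes. Spike scaling changed the balance of directions: over all tested probe sets the share of calls that were higher went from 48.9% to 88.5% with zinc in dez, from 43.8% to 85.1% in dez on control medium, from 51.8% to 96.7% in dez on high zinc and from 45.6% to 83.5% for the interaction. In dez on high zinc it gave 3 of the 6 genes as higher (EXO, GH3.3 and GID1B) and 1 as lower (IAA29). Over all tested probe sets 56.9% were called there, against 42.8% as deposited.

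**Figure D1:**
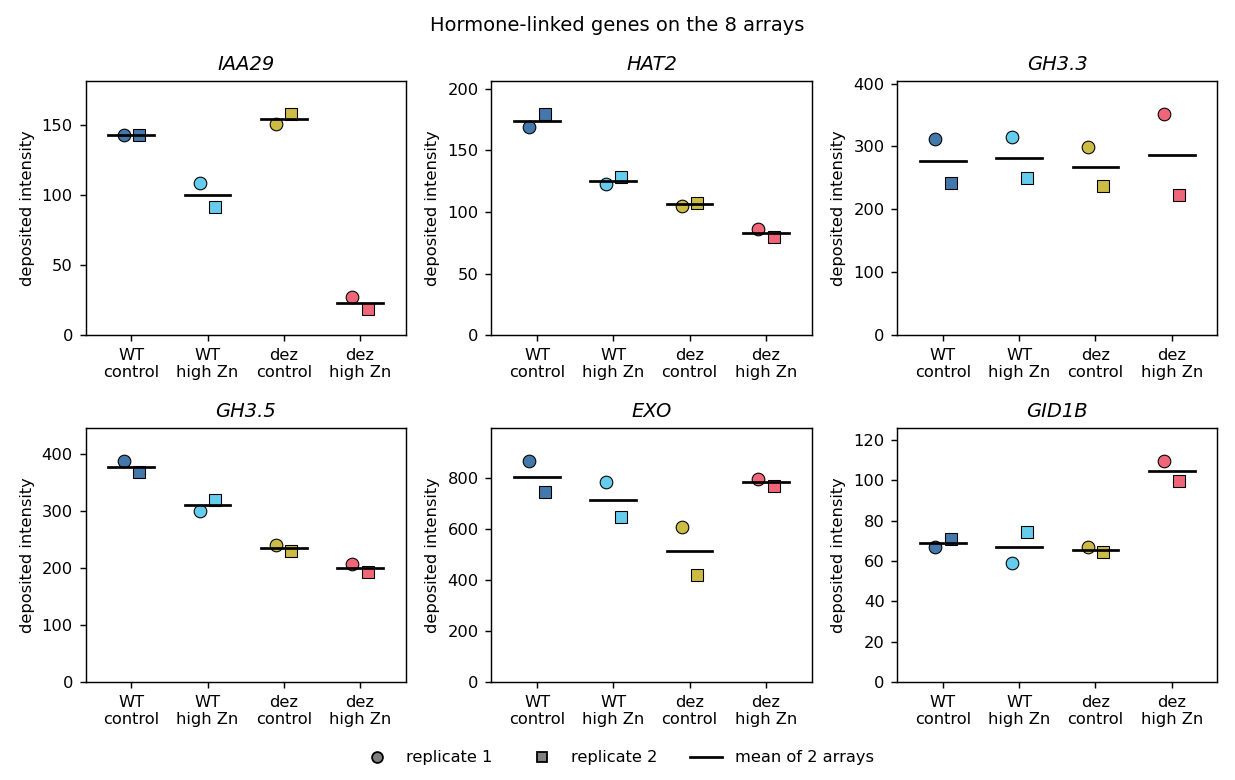
Deposited intensity (linear, vertical axis from 0) of the 6 genes on each of the 8 arrays, by group of genotype and zinc; circles are replicate 1, squares replicate 2 and bars the mean of 2 arrays. IAA29 falls to 27.3 and 18.3 in dez on high zinc, HAT2 and GH3.5 descend over the 4 groups without overlap, and GH3.3 overlaps in all of them.

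IAA29 encodes an Aux/IAA repressor of auxin signalling. Its intensity was 143 and 143 in wild-type control, 108 and 91.7 in wild-type high-zinc, 151 and 158 in dez control and 27.3 and 18.3 in dez high-zinc samples. No 2 groups overlapped, and dez on high zinc lay far below the rest. In dez, high zinc lowered the mean from 154 ± 4.90 to 22.8 ± 6.36 (SD, n = 2), a ratio of 6.75-fold, and the log2 difference was -2.14 ± 0.13 (SE, limma adjusted p = 2.08e-06). Only 0.659% of the tested probe sets moved at least as far with zinc in dez. These are bulk samples, in which fewer cells of a type and less RNA per cell cannot be told apart.

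On high zinc, IAA29 was 4.37-fold lower in dez than in wild type (log2 difference -1.58 ± 0.13, limma adjusted p = 9.53e-06). On control medium the genotypes differed by 0.10 ± 0.13 (adjusted p = 0.686 in limma), with a 95% interval from -0.19 to 0.39. The zinc effect in wild type was -0.46 ± 0.13, from a mean of 143 to 99.9 ± 11.7, and did not pass the test (limma adjusted p = 0.190). With zinc in wild type 3.42% of probe sets moved at least as far. The interaction was -1.68 ± 0.19 (limma adjusted p = 2.47e-04), so the zinc effect was larger in dez by this test. These 3 calls held under every alternative that was run. Their size depended on the pseudocount, since with 64 in place of 16 the 3 log2 differences were -1.33 with zinc in dez, -0.92 for dez on high zinc and -0.99 for the interaction, and spike scaling gave -1.02 for dez on high zinc.

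The IAA29 change in dez went with a change in a seed marker. OLEO3, an oil body protein of seeds and the only seed marker with a tested single-gene probe set, had means of 100.6 ± 35.7, 85.5 ± 19.0, 77.1 ± 21.5 and 26.0 ± 1.88 (SD, n = 2) in the order of groups above, and fell with zinc in dez (-1.13 ± 0.22, limma adjusted p = 0.00257). The OLEO3 interaction was -0.95 ± 0.31 and did not pass the test (limma adjusted p = 0.0545). Of the root markers, BGLU23 and EXPA7 had a single-gene probe set. BGLU23, a beta-glucosidase, had means of 3790 ± 125, 3117 ± 410, 3702 ± 63.3 and 3046 ± 22.0, and fell with zinc in dez by 0.28 on the log2 scale (limma adjusted p = 0.0499). Its zinc difference in wild type was of like size (-0.29, limma adjusted p = 0.285), and its interaction was 0.006 (limma adjusted p = 0.964). EXPA7, a root hair expansin, was too dim to be tested and did not follow BGLU23: its intensity was 10.9 and 10.1 in wild-type control, 9.85 and 13.7 in wild-type high-zinc, 10.2 and 8.80 in dez control and 14.2 and 28.2 in dez high-zinc samples. The part of these tissues in the IAA29 result was not tested.

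HAT2 encodes a homeodomain-leucine zipper transcription factor of class II and is an early auxin-induced gene. Its intensity was 169 and 179 in wild-type control, 123 and 128 in wild-type high-zinc, 105 and 107 in dez control and 86.6 and 80.1 in dez high-zinc samples. The 4 groups did not overlap, and they descended in that order. On control medium HAT2 was 1.64-fold lower in dez (174 ± 7.56 against 106 ± 1.70, SD, n = 2), with a log2 difference of -0.64 ± 0.10 (limma adjusted p = 0.00419). On high zinc it was 1.504-fold lower in dez (-0.51 ± 0.10, limma adjusted p = 0.00271).

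With high zinc, HAT2 fell 1.27-fold in dez (-0.30 ± 0.10, limma adjusted p = 0.0467). In wild type the difference was -0.43 ± 0.10, with means of 174 ± 7.56 and 125 ± 3.86, and did not pass the test (limma adjusted p = 0.121). The interaction was 0.13 ± 0.15 (limma adjusted p = 0.603), with a 95% interval from -0.20 to 0.45, so the zinc effects in the 2 genotypes were not shown to differ. The zinc call in dez was lost without any 1 of the 4 dez arrays: the log2 difference was -0.31 without dez control replicate 1 (adjusted p = 0.168 in limma), -0.28 without dez control replicate 2 (0.205), -0.35 without dez high-zinc replicate 1 (0.0789) and -0.25 without dez high-zinc replicate 2 (0.181). It was also lost with a pseudocount of 64 (0.0572), with no filter on low probe sets (0.0587) and with the 3′ minus 5′ covariate (0.0830), and spike scaling turned it to 0.054 (0.911).

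GH3.5 encodes an enzyme that conjugates auxin to amino acids. Its intensity was 387 and 368 in wild-type control, 300 and 319 in wild-type high-zinc, 241 and 229 in dez control and 206 and 193 in dez high-zinc samples. As for HAT2, the 4 groups descended in that order without overlap. GH3.5 was 1.61-fold lower in dez on control medium (377 ± 13.5 against 235 ± 8.12, SD, n = 2), with a log2 difference of -0.65 ± 0.10 (limma adjusted p = 0.00376). On high zinc it was 1.55-fold lower in dez (309 ± 13.8 against 200 ± 9.15), with a log2 difference of -0.59 ± 0.10 (limma adjusted p = 0.00109).

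Zinc did not pass the test for GH3.5 in either genotype. The log2 difference was -0.27 ± 0.10 in wild type (limma adjusted p = 0.334) and -0.22 ± 0.10 in dez (limma adjusted p = 0.133). The interaction was 0.06 ± 0.15 (limma adjusted p = 0.835), with a 95% interval from -0.27 to 0.38. The call on control medium was lost without dez control replicate 2, where the log2 difference was -0.62 (limma adjusted p = 0.0581).

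The lower HAT2 and GH3.5 levels in dez are relative to the other probe sets of each array. With spike scaling the median of all tested probe sets was 0.40 for dez on control medium and 0.68 for dez on high zinc, a move of 0.38 and 0.66 from the deposited scale. On that scale HAT2 differed by -0.20 (limma adjusted p = 0.604) and GH3.5 by -0.19 (0.647) on control medium, and on high zinc HAT2 differed by 0.19 (0.594) and GH3.5 by 0.17 (0.658). All 4 calls were thus lost and both genes changed sign on high zinc, while all 4 values lay below the spike-scaled medians. The standard errors also grew: on control medium they were 0.32 for HAT2 and 0.34 for GH3.5, against 0.10 for both as deposited.

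GH3.3 encodes a second auxin-conjugating enzyme of the same family. Its intensity was 313 and 241 in wild-type control, 314 and 250 in wild-type high-zinc, 298 and 237 in dez control and 351 and 223 in dez high-zinc samples. All 4 groups overlapped. The replicate 1 array was the higher one in every group, by 0.31 to 0.62 on the log2 scale. Replicate 1 was higher in all 4 groups for 5.12% of the tested probe sets, and replicate 2 for 5.19%.

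The group means of GH3.3 were 277 ± 50.5, 282 ± 45.6, 268 ± 43.6 and 287 ± 91.0 (SD, n = 2), which differed by less than the spread between replicates. No comparison of GH3.3 passed the test: the zinc effect was 0.03 ± 0.21 in wild type (95% interval -0.44 to 0.49, limma adjusted p = 0.977) and 0.07 ± 0.21 in dez (-0.39 to 0.54, adjusted p = 0.828). The difference of dez from wild type was -0.04 ± 0.21 on control medium (95% interval -0.51 to 0.42, limma adjusted p = 0.921) and -0.00 ± 0.21 on high zinc (-0.47 to 0.46, adjusted p = 0.997). On control medium the differences of HAT2 (-0.64), GH3.5 (-0.65) and EXO (-0.65) lay outside the GH3.3 interval. On high zinc those of IAA29 (-1.58), HAT2 (-0.51), GH3.5 (-0.59) and GID1B (0.55) lay outside it. With zinc in dez those of IAA29 (-2.14), EXO (0.61) and GID1B (0.56) lay outside it. Changes of GH3.3 within its intervals were not excluded, and the -0.30 of HAT2 with zinc in dez was of such a size. With spike scaling GH3.3 was higher in dez on high zinc by 0.76 (limma adjusted p = 0.0421), beside a median of 0.68 over all probe sets on that scale.

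EXO (EXORDIUM) encodes an extracellular protein needed for brassinosteroid-promoted growth. Its intensity was 866 and 746 in wild-type control, 783 and 648 in wild-type high-zinc, 610 and 422 in dez control and 796 and 770 in dez high-zinc samples. The dez control group lay below the other 3, which overlapped. On control medium EXO was 1.56-fold lower in dez (806 ± 84.5 against 516 ± 133, SD, n = 2), with a log2 difference of -0.65 ± 0.16 (limma adjusted p = 0.0342). High zinc raised it 1.52-fold in dez (516 ± 133 against 783 ± 18.4), with a log2 difference of 0.61 ± 0.16 (limma adjusted p = 0.0159).

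In wild type the zinc effect on EXO was -0.17 ± 0.16 (limma adjusted p = 0.753), and the interaction was 0.78 ± 0.23 (limma adjusted p = 0.0394). On high zinc the genotypes differed by 0.13 ± 0.16 (limma adjusted p = 0.546), with a 95% interval from -0.23 to 0.50. The 2 dez control arrays stood apart in EXO, and all 3 calls were lost without replicate 2: the log2 difference was then 0.35 for zinc in dez (limma adjusted p = 0.155), -0.39 for dez on control medium (0.295) and 0.52 for the interaction (0.143). As for GH3.3, replicate 1 was the higher array in every group, by 0.05 to 0.52 on the log2 scale.

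Other arrays and settings also ended calls for EXO. The zinc call in dez was lost without dez high-zinc replicate 1 (0.59, limma adjusted p = 0.0899) or replicate 2 (0.63, 0.0714). The call for dez on control medium was lost without wild-type control replicate 1 (-0.54, limma adjusted p = 0.135) or replicate 2 (-0.75, 0.0619), without dez high-zinc replicate 1 (0.0681) or replicate 2 (0.0683), with only the 2 groups compared in the fit (0.0743), with the 3′ minus 5′ covariate (-0.33, 0.329) and with spike scaling (-0.18, 0.682). The interaction was lost without wild-type control replicate 1 (0.68, limma adjusted p = 0.0991), wild-type high-zinc replicate 2 (0.65, 0.123), dez high-zinc replicate 1 (0.76, 0.120) or replicate 2 (0.80, 0.102), with no filter (0.0546) and with spike scaling (1.10, 0.271). Spike scaling kept the zinc call in dez at 1.02 (limma adjusted p = 0.0306), beside a median of 0.35 over all probe sets on that scale, and it added a call for dez on high zinc at 0.93 (0.0189).

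GID1B encodes one of the soluble gibberellin receptors. Its intensity was 66.8 and 71.0 in wild-type control, 59.1 and 74.4 in wild-type high-zinc, 66.7 and 64.3 in dez control and 109 and 99.8 in dez high-zinc samples. The wild-type high-zinc pair spanned those of wild-type control and dez control, which lay next to each other without overlap, and dez on high zinc lay above all of them. High zinc raised GID1B 1.597-fold in dez (65.5 ± 1.73 against 105 ± 6.82, SD, n = 2), with a log2 difference of 0.56 ± 0.12 (limma adjusted p = 0.00412). On high zinc it was 1.57-fold higher in dez than in wild type (0.55 ± 0.12, limma adjusted p = 0.00382).

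The zinc effect on GID1B in wild type was -0.04 ± 0.12 (limma adjusted p = 0.928), and the interaction was 0.61 ± 0.17 (limma adjusted p = 0.0281). On control medium the genotypes differed by -0.06 ± 0.12 (limma adjusted p = 0.802). The zinc call in dez was kept without any 1 array, and spike scaling gave 0.94 there (limma adjusted p = 0.0180) and 1.24 for dez on high zinc (2.80e-04). The call for dez on high zinc was lost with the 3′ minus 5′ covariate (0.45, limma adjusted p = 0.0989). The interaction was lost with spike scaling (0.92, limma adjusted p = 0.302), without wild-type control replicate 2 (0.57, 0.0735), wild-type high-zinc replicate 1 (0.47, 0.0710), dez control replicate 1 (0.63, 0.0820) or replicate 2 (0.59, 0.107), and dez high-zinc replicate 1 (0.55, 0.0934) or replicate 2 (0.66, 0.0518).

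**Figure D2:**
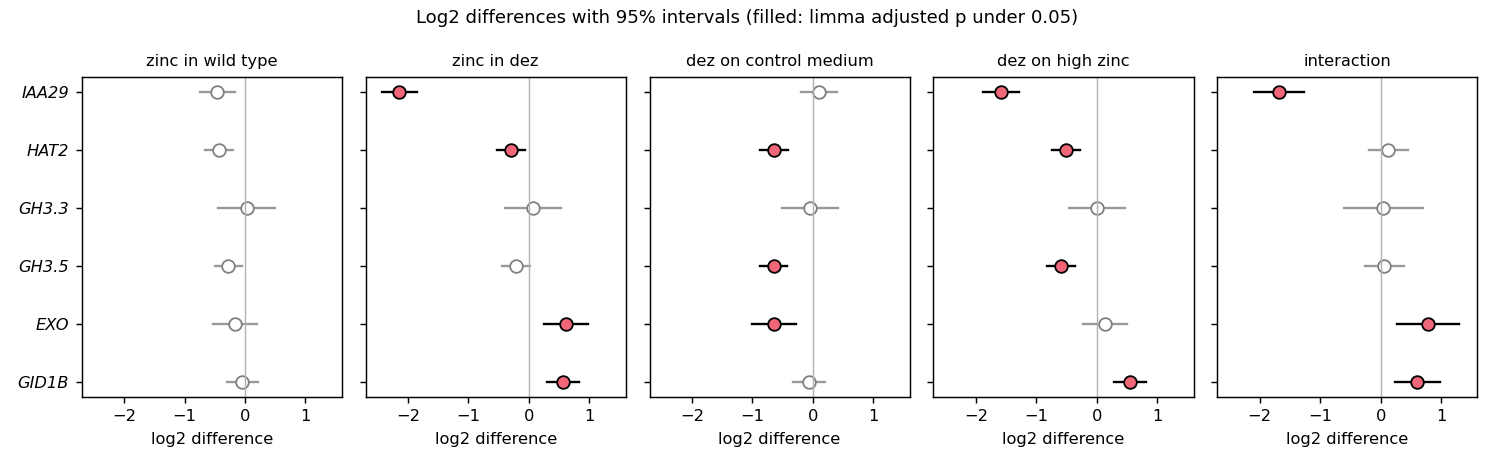
Log2 difference of the 6 genes (horizontal axis, log2 of intensity + 16) in the 5 comparisons, with 95% intervals from limma; filled points had an adjusted p under 0.05. IAA29 lies at -2.14 with zinc in dez, whereas no gene is filled for zinc in wild type, and GH3.3 lies near 0 throughout.

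**Figure D3:**
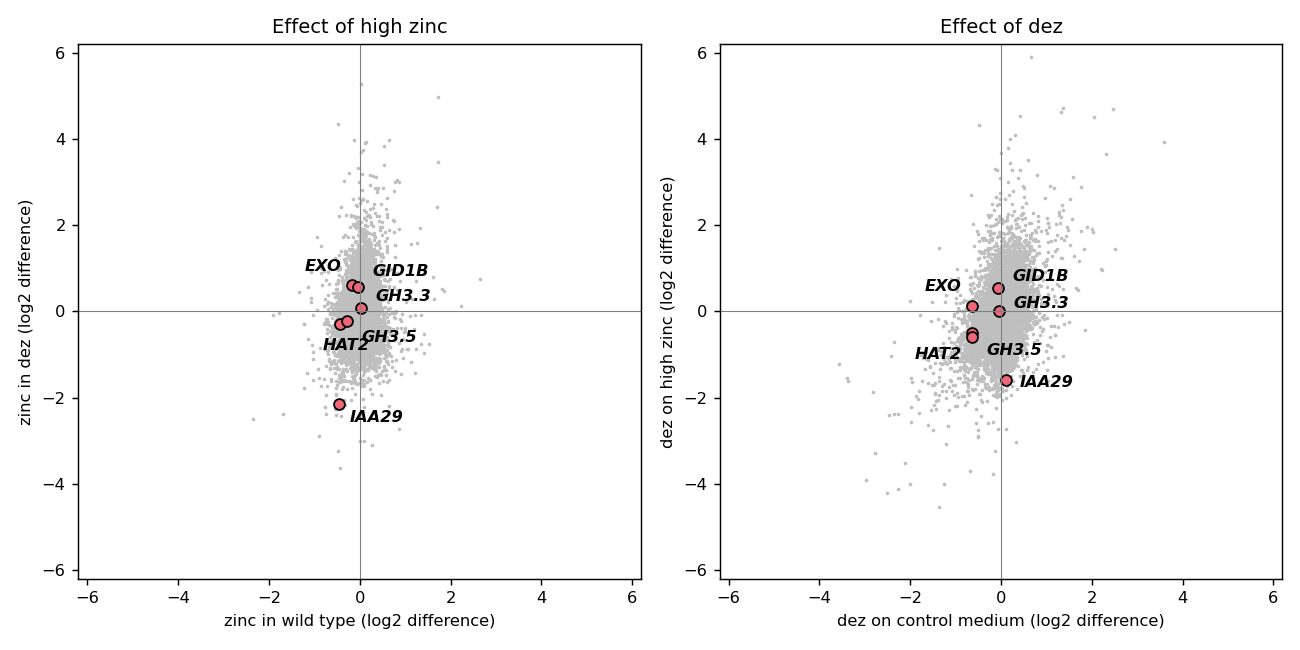
Log2 differences of all 13648 tested probe sets (grey) and the 6 genes (red); the left panel sets the zinc effect in dez against that in wild type and the right panel the genotype difference on high zinc against that on control medium. IAA29 lies near the lower end of the left panel's points, and HAT2, GH3.5 and EXO are among the largest 4.51%, 4.30% and 4.33% of differences on control medium in the right panel.

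Among the 6 genes, 3 passed the interaction test: IAA29 with a larger decrease in dez, and EXO and GID1B with an increase in dez. The IAA29 call held under every alternative that was run. Those of EXO and GID1B were lost with spike scaling and when single arrays were left out. HAT2 and GH3.5 were lower in dez on both media, and their interactions did not pass the test. The 2 zinc comparisons and the 2 genotype comparisons share arrays with each other, so their values are given side by side. Apart from the interaction, no relation between them was tested. The median log2 difference of the 6 genes was -0.22 with zinc in wild type, -0.07 with zinc in dez, -0.35 in dez on control medium, -0.26 in dez on high zinc and 0.09 for the interaction. The corresponding medians of all tested probe sets were 0.00, 0.01, 0.03, 0.02 and 0.02.

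The wider hormone pathways were read from 8 lists of 164 genes. The lists covered the Aux/IAA and GH3 families, HD-ZIP class II factors, auxin synthesis, transport and signalling, the EXORDIUM family, brassinosteroid and gibberellin genes, and PIF factors. Only 23 of the 164 genes had a single-gene probe set, and 15 of these passed the filter on low intensity. The remaining 8, namely IAA30, IAA31, IAA33, IAA34, GH3.1, GH3.9, LBD29 and BRL1, had mean intensities from 4.63 to 15.1. None of the 33 brassinosteroid genes and none of the 4 PIF genes could be tested. Most genes of these pathways were therefore not analysed here.

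Besides the 6 genes, 9 listed genes were tested. With zinc in wild type 0 of the 9 passed limma's test, against 0.703% of all tested probe sets. With zinc in dez 1 of the 9 rose, against 16.6% of all tested probe sets. In dez on control medium 1 was lower, against 5.39%, and in dez on high zinc 2 were lower, against 20.7%. For the interaction 0 of the 9 passed, against 19.4%. Over all 15 genes the median log2 difference was -0.08, -0.09, -0.13, -0.18 and 0.04 in the order of comparisons above.

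Of the 3 tested Aux/IAA genes, IAA29 and IAA20 changed and IAA18 passed in no comparison. IAA20, another Aux/IAA protein gene, had intensities of 56.2 and 60.002 in wild-type control, 47.2 and 34.8 in wild-type high-zinc, 30.6 and 19.2 in dez control and 16.6 and 19.5 in dez high-zinc samples. Both dez groups lay below both wild-type groups and overlapped each other. IAA20 was lower in dez on control medium (-0.87 ± 0.15, limma adjusted p = 0.00509) and on high zinc (-0.74 ± 0.15, limma adjusted p = 0.00245). The dez means were 24.9 ± 8.07 and 18.0 ± 2.03 (SD, n = 2). They lay near the lowest mean intensity tested (22.2) and the pseudocount of 16, which bears on the size of both differences. Spike scaling (-0.53 and -0.25, limma adjusted p = 0.180 and 0.358) and the 3′ minus 5′ covariate (-0.74 and -0.57, 0.0693 and 0.0898) ended both calls, and leaving out dez control replicate 2 ended the first (-0.67, 0.0610). IAA29, in contrast, had a log2 difference of 0.10 between the genotypes on control medium.

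In the GH3 family, GH3.5 changed while GH3.3 and GH3.17 passed in no comparison. GH3.17, whose product conjugates auxin to glutamate, had means of 203 ± 29.4, 238 ± 16.1, 244 ± 22.2 and 193 ± 2.65 (SD, n = 2) in the order of groups above. Its interaction was -0.53 ± 0.18 (limma adjusted p = 0.0615). LBD16, a transcription factor of lateral root initiation, was lower in dez on high zinc (32.8 ± 0.763 against 23.4 ± 3.89, SD, n = 2), with a log2 difference of -0.31 ± 0.10 (limma adjusted p = 0.0268). That call was lost with the 3′ minus 5′ covariate (-0.27, limma adjusted p = 0.251), with only the groups compared (0.0609), without wild-type high-zinc replicate 1 (0.0810) or replicate 2 (0.0711), and without dez high-zinc replicate 2 (-0.21, 0.166), and it turned to 0.20 with spike scaling (0.448).

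All 6 gibberellin genes with a single-gene probe set were tested, among them the 3 GID1 receptors. GID1B rose with zinc in dez, whereas GID1A had means of 81.0 ± 1.38 and 72.5 ± 7.89 (SD, n = 2) in dez on control and high-zinc medium and a log2 difference of -0.13 ± 0.11 (limma adjusted p = 0.3996). GID1C had means of 28.2 ± 1.44 and 22.6 ± 1.63 (SD, n = 2) and a log2 difference of -0.19 ± 0.12 (limma adjusted p = 0.235). Whether the receptors differ from each other was not tested. SLY1, the F-box protein that targets DELLA repressors, rose with zinc in dez from 117 ± 0.829 to 156 ± 10.1 (SD, n = 2), by 0.37 ± 0.12 (limma adjusted p = 0.0425).

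The SLY1 call lay close to the threshold. It was lost without dez control replicate 1 (0.36, limma adjusted p = 0.171) or replicate 2 (0.37, 0.153), and without dez high-zinc replicate 1 (0.31, 0.192) or replicate 2 (0.43, 0.0805). Quantile normalization (0.0600), median centring (0.0531), no filter (0.0532) and spike scaling (0.75, 0.0945) also ended it. SNE, an F-box relative of SLY1, and SPY, a repressor of gibberellin signalling, passed in no comparison.

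**Figure D4:**
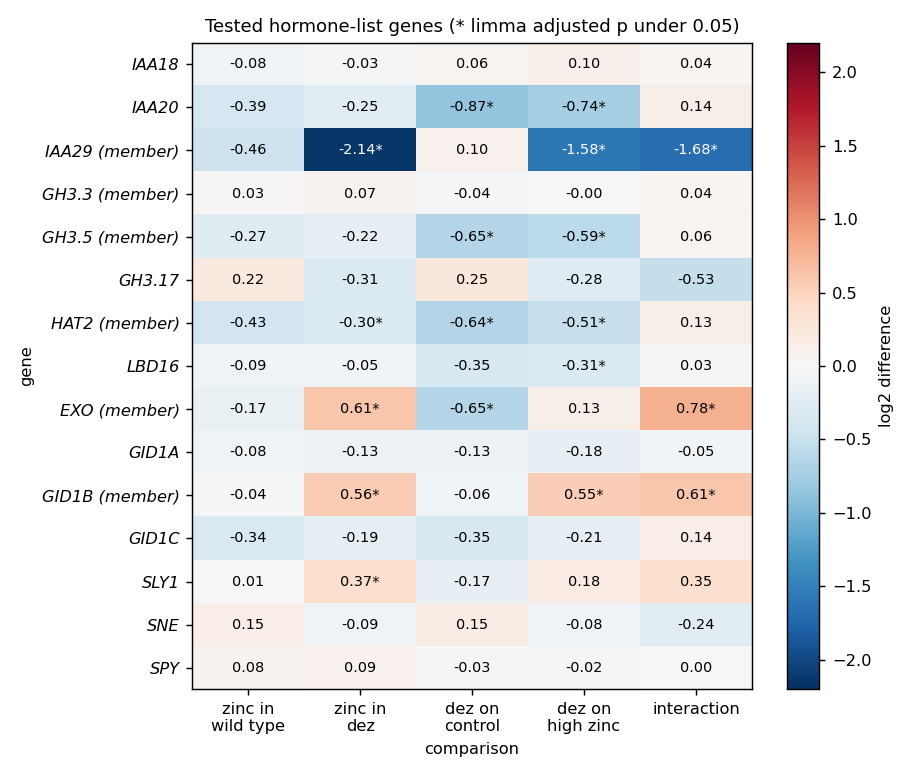
Log2 differences (colour and printed value) of the 15 tested genes of the hormone lists in the 5 comparisons; an asterisk marks a limma adjusted p under 0.05. IAA29 with zinc in dez holds the strongest colour, and IAA20 is lower in dez on both media.

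The single-gene probe sets whose log2 values over the 8 arrays correlated best with each gene were found among 7283 tested ones. The points share 4 groups of 2 arrays, so each correlation mostly describes the pattern of 4 group means. For IAA29 they were AT4G09160, TUB5, a beta-tubulin gene, and AOP1, each with Pearson r = 0.99. TUB5 had means of 453, 379, 450 and 225 in the order of groups above, a smaller decrease than that of IAA29 in dez on high zinc. For HAT2 they were AT5G13240 (r = 0.997), the sugar transporter SWEET11 (0.99) and AT5G59960 (0.99). SWEET11 had means of 980, 613, 487 and 292, which descend in the same order as HAT2.

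For GH3.5 the most alike were AT3G48020 (r = 0.996), AT5G59960 (0.99) and AT5G62350 (0.99), so AT5G59960 was on the lists of both HAT2 and GH3.5. AT3G48020 had means of 158, 116, 63.7 and 43.2. For GID1B they were AT5G53750 (r = 0.99), AT3G15430 (0.99) and AT4G10390 (0.98), and AT5G53750 had means of 29.2, 26.8, 28.2 and 61.9. For EXO they were AT1G06930 (r = 0.98), AT2G46600 (0.93) and AT1G21670 (0.92), and AT2G46600 had means of 714, 642, 518 and 799. For GH3.3, whose arrays differ mainly within groups, the highest correlations were 0.92 with AT3G28590 and 0.90 with AT3G17365 and AT3G14470.

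**Figure D5:**
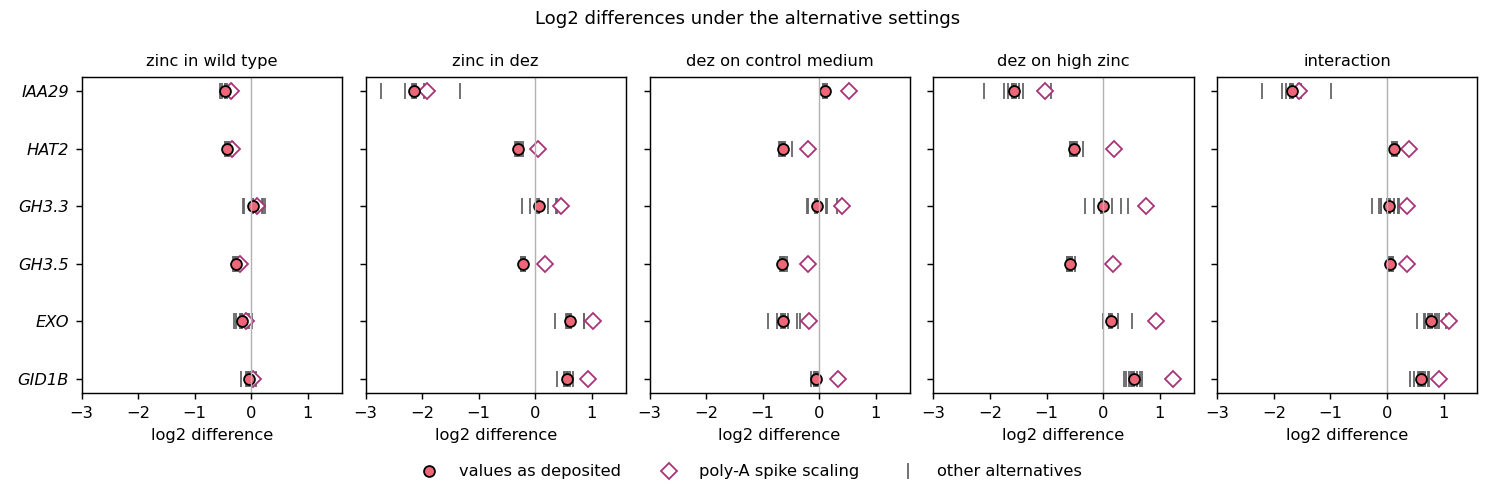
Log2 differences of the 6 genes (horizontal axis) in the 5 comparisons with the values as deposited (red circles), with spike scaling (open diamonds) and with the other alternatives (grey ticks). Spike scaling moves all 6 genes to higher values in dez on high zinc, and IAA29 stays below 0 there at -1.02.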

How the data were processed

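RNA of 8 seedling samples was measured on Affymetrix ATH1 arrays. The deposited values are linear intensities, 1 per probe set, and the submitters' processing notes name MAS5; the sources used here give no version, role or scaling. The table held 22810 probe sets, 64 of them controls; 13513 had 1 gene, 503 several and 8730 none listed in the platform annotation. RefSeq (TAIR10.1) matched 13436 of the single-gene probe sets by gene ID.

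Log2 values were computed from the deposited intensities with a pseudocount of 16, and the upper 60% of non-control probe sets by mean log2 value were tested (13648, the lowest with a mean intensity of 22.2). Fold values are ratios of mean intensities. The 4 group means were fitted over 8 arrays with limma 3.58.1 (R 4.3.3) and a trended prior, leaving 4 residual and adding 6.28 prior degrees of freedom. Each of 5 comparisons was tested on both sides (two-sided) and adjusted by Benjamini-Hochberg, at a threshold of 0.05. The number of arrays limits the precision. The script was tested on simulated data. Labels call the replicates biological, without saying whether they were grown separately.

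The 6 genes and the hormone lists were chosen with earlier results of these data known. Named genes are the 6, up to 4 per list and comparison with the smallest adjusted p, and the 3 most alike probe sets of each of the 6. The other listed genes with a probe set are named to account for the lists. Of the marker lists fixed for root, shoot epidermis, dark-grown state and seed, only BGLU23 and OLEO3 were tested. Alternatives changed normalization, spike scaling, pseudocount, filter, prior, replicate block, covariate, samples and threshold. A planned motif search of promoters was not run, since no promoter sequence was used here.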

Additional observations from a re-analysis of the deposited data

Results flagged for a closer look

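For 3 of the 6 genes the zinc effect in dez differed from that in wild type by the interaction term of the limma fit over 8 arrays, which 19.4% of all tested probe sets also passed. For IAA29 the zinc effect in dez minus that in wild type was -1.68 (log2, limma adjusted p = 2.47e-04), and both dez high-zinc arrays lay below the other 6. For EXO it was 0.78 (limma adjusted p = 0.0394), and for GID1B 0.61 (limma adjusted p = 0.0281). IAA29 passed the test under every alternative that was run, whereas EXO and GID1B lost theirs when single arrays were left out, as given with their levels.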

How the results depend on the processing

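Over 22 alternatives per gene and comparison (fewer for the interaction), 585 values of the 6 genes kept direction and side of the threshold, 45 lost a call, 2 gained one and 26 changed sign, 3 of the lost and 1 of the gained calls being among these 26. The number of the 6 genes called with zinc in dez (4) was 2 to 4 when 1 array was left out (21.0% to 35.6% of all probe sets called, against 34.0%) and 2 at an adjusted p threshold of 0.01 (21.4%). For dez on control medium (3) it was 0 with spike scaling and 1 to 3 with 1 array left out (2.63% to 11.1%, against 9.58%), and for the interaction (3) it was 1 with spike scaling, 1 to 2 with 1 array left out (11.9% to 20.4%, against 19.4%) and 1 at a threshold of 0.01 (10.3%). For dez on high zinc it was 4 with spike scaling too, but 3 higher and 1 lower in place of 1 and 3. The share of all probe sets called was then 56.9%, against 42.8%. Leaving out an array leaves a group of 1, which is assumed to vary like the others. Many of these alternatives could not change a direction. The log2 difference stays the same under another filter, prior, threshold, replicate block or fit of only the groups compared. It also stays the same without an array from outside the comparison. The 585 values are therefore no measure of how stable the directions are.

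With spike scaling the log2 difference changed sign for GID1B with zinc in wild type (0.021), HAT2 (0.054) and GH3.5 (0.17) with zinc in dez, GH3.3 (0.41) and GID1B (0.32) in dez on control medium, and HAT2 (0.19), GH3.3 (0.76), GH3.5 (0.17) and LBD16 (0.20) in dez on high zinc. The medians of all probe sets moved by 0.07, 0.34, 0.38, 0.66 and 0.28 in the 5 comparisons, and the share called was 0.205%, 14.9%, 2.70%, 56.9% and 3.99%. With the 3′ minus 5′ covariate EXO with zinc in wild type (0.019) and GH3.3 in both genotype comparisons (0.32 on control medium, 0.44 on high zinc) changed sign, and with a pseudocount of 64 GH3.3 in dez on high zinc was 0.0022. The cause was not tested for any of these changes of sign. With 1 array left out GH3.3 ranged from -0.15 to 0.20 with zinc in wild type, -0.24 to 0.38 with zinc in dez, -0.22 to 0.13 in dez on control medium, -0.31 to 0.31 in dez on high zinc and -0.27 to 0.36 for the interaction. GID1B with zinc in wild type ranged from -0.18 to 0.091 and EXO in dez on high zinc from -0.00043 to 0.27.

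The replicate numbers share no stated batch, and the correlations of the replicate differences between groups ran from -0.363 to 0.375, so they were not taken as pairs. A fit with the replicate number as a block called 0, 3, 3, 4 and 3 of the 6 genes in the 5 comparisons. That fit called 0.850%, 32.0%, 8.30%, 40.8% and 18.1% of all tested probe sets. It ended the zinc calls in dez of HAT2 (limma adjusted p = 0.0691) and SLY1 (0.0520) and changed no other call of the 6 genes, nor those of IAA20 and LBD16. Another probe set per gene was not run, since each of the 6 genes has 1. Fitting only the groups compared gives no interaction.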
